A study of Homo sapiens with 8 samples.

Results

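The response of H1299/R273H cells to etoposide was measured by small RNA sequencing, by comparing libraries of treated cells with libraries of untreated cells of the same line. The comparison rests on 4 of the 8 libraries of the series, 2 untreated and 2 treated. H1299, an established line from a non-small cell lung carcinoma, lacks p53. Mutant p53 R273H was introduced on a pCMV vector and G418-resistant colonies were expanded, so treated and untreated cells share the transgene and the selection marker, and the labels give both the passages 15-20. Whether the line is 1 clone or a pool is not given in the sources used here. The treated cells received etoposide for 24 h before harvest, at a dose that the sample labels state once as 10 µM and once as 10 mM. The labels do not say whether the 2 libraries of a group came from separate cultures, while the study's text calls its replicates biological. The p-values rest on the spread between these libraries, pooled in part over the features. That spread may be technical if the libraries share a culture. The empty vector (EV) line of the series, which came from another laboratory, was used only to ask whether the response differed between the lines. Small RNA libraries hold no mRNA, so the mutant p53 transcript could not be checked in these libraries. The samples are bulk RNA, in which fewer cells of a type and less RNA per cell cannot be told apart.

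MicroRNAs (miRNAs) are short RNAs that guide Argonaute proteins to messenger RNAs through the seed, the stretch near their 5′ end that pairs with the target, and they usually lower the output of those messages. Etoposide traps topoisomerase II on cut DNA and so leaves double-strand breaks. In cells with normal p53 such breaks activate transcription of the miR-34 genes and of the miR-194/192 and miR-215 genes, while H1299 cells have no normal p53 and the R273H protein has lost the contact of p53 with its DNA sites. Fragments of tRNA and rRNA are also ligated into such libraries and were counted beside the miRNAs.

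The table of this comparison listed 995 features other than adapters, namely 761 miRNAs, 231 tRNA features and 3 rRNA features. Of these, 448 averaged 3 or more normalized counts in the R273H libraries and were tested (341 miRNAs, 104 tRNA features and 3 rRNA features). A normalized count is a number of reads scaled by a size factor for its library. The libraries held between 366523 and 530976 reads on these features, so 3 reads in a library corresponded to a normalized count between 2.23 and 3.99. Over the 448 features, Pearson's r of the log2 values was 0.960 between the untreated libraries and 0.976 between the treated ones, and it lay between 0.959 and 0.968 for the 4 pairs of a treated and an untreated library. These are correlations across features, which share their libraries, and they are given as a description.

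The mature sequences of the miRNAs that the results turn on were taken from RefSeq (GRCh38.p14), which held a sequence for 303 of the 341 tested miRNAs. They are printed 5′ to 3′ with the seed, bases 2 to 8, in capitals. The first set shares a seed of the miR-34/449 family, and all of the printed members had a positive fold change. miR-34c-5p of the same family had no matched sequence and is not printed, and its values are given below.
miR-34a-5p: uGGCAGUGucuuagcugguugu
miR-449a: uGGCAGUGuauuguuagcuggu
miR-449b-5p: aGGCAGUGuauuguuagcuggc
The next set holds the other higher miRNAs with the smallest p-values, whose seeds differ from each other.
miR-338-3p: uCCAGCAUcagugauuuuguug
miR-34b-3p: cAAUCACUaacuccacugccau
miR-194-5p: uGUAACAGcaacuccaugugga
The miR-29 members share a seed, and so do the miR-30 members, and in each set a single printed member was called lower (miR-29b-3p and miR-30c-5p).
miR-29a-3p: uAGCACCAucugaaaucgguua
miR-29b-3p: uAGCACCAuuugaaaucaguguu
miR-29c-3p: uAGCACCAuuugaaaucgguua
miR-30a-5p: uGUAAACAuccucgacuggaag
miR-30c-5p: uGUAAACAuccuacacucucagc
miR-30e-5p: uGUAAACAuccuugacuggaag
The last set shows lower miRNAs from other families, of which miR-100-5p and let-7a-2-3p are made from neighbouring genes.
miR-100-5p: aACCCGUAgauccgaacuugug
let-7a-2-3p: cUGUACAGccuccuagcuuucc
miR-16-2-3p: cCAAUAUUacugugcugcuuua

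After etoposide, members of the miR-34/449 group, miR-338-3p and miR-194-5p were among the miRNAs called higher, and miR-29b, miR-30b, miR-30c and miR-100 products among those called lower. A feature is called here when its groups differ 2-fold or more with an unadjusted p under 0.05 in limma. Of the 341 tested miRNAs 21 were called (6.16%), 10 higher (2.93%) and 11 lower (3.23%), and with the tRNA features 22 of 448 were called (4.91%). No miRNA passed Benjamini-Hochberg adjustment in limma or edgeR, the smallest adjusted p of limma being 0.417, while 29 miRNAs (8.5%) had an unadjusted p under 0.05. DESeq2 on the recovered reads called 9 miRNAs and adjusted 1 of them under 0.05, miR-30b-5p (adjusted p = 0.035). Its 9 calls were 1 higher and 8 lower, and among the 10 miRNAs called higher by limma it kept the unadjusted p of miR-338-3p alone, so that miR-34b-3p, miR-449a, miR-449b-5p and miR-194-5p were not called. Adjusted p-values below are those of limma over the 448 features. Libraries of both groups did not overlap for 70 higher and 64 lower miRNAs, 20.5% and 18.8% of those tested.

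**Figure D1:**
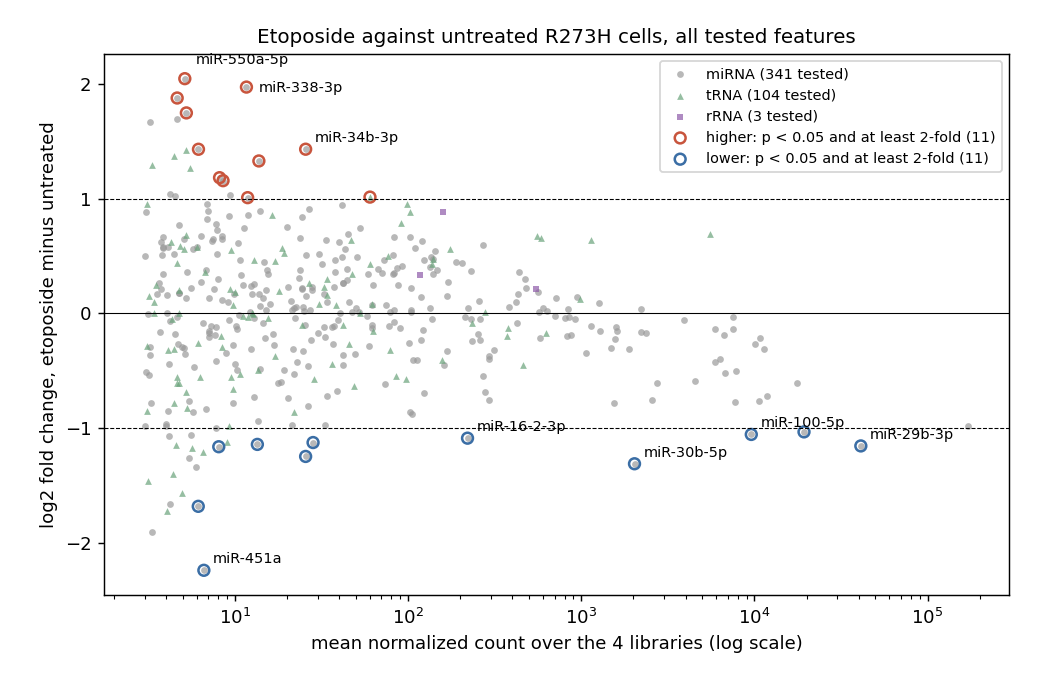
Log2 fold change (etoposide minus untreated, vertical axis) of each of the 448 tested features against its mean normalized count over the 4 libraries (horizontal axis, log scale). Red and blue rings mark the 11 higher and 11 lower features that met both criteria, and the miRNAs with a mean above 1000 lie mostly below 0.

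The split between higher and lower calls differed between limma and DESeq2, and also with the scaling of the libraries. With the deposited size factors the median log2 fold change of the tested miRNAs was 0.02. When the libraries were scaled to equal read totals, a setting chosen after seeing the data, the median moved up by 0.66 and 34 miRNAs were called higher and 1 lower. In that scaling 8 of the 11 lower miRNAs lost their unadjusted p under 0.05 and miR-29b-3p and miR-30c-5p were under 2-fold, which left miR-451a as the lower call. With equal upper quartiles the median was -0.13, and 6 miRNAs were called higher and 19 lower. All 22 called features, the tRNA feature included, had the sign of the main fit under each of these scalings and under every other setting tried. Fold changes below are relative to the deposited scaling. The count also moved with single libraries. It was 32 without untreated replicate 1 and 4 without etoposide replicate 2, where the lone library of a group was assumed to vary like the others. One of the 22 called features, miR-16-2-3p, kept p under 0.05 with each of the 4 libraries left out in turn, and 10 kept it in 1 of the 4 fits.

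Among the higher miRNAs, miR-338-3p had the smallest p-value. It lies within the AATK gene, which encodes a neuronal kinase. It was counted 2 and 5 times in the untreated libraries and 19 and 30 times in the treated ones. Both treated libraries were above both untreated libraries, with mean normalized counts of 4.28 ± 2.29 and 19.0 ± 4.67 (SD, n = 2 libraries a group). The log2 fold change was 1.97 ± 0.49 (SE, adjusted p = 0.417). It was 1.73 without etoposide replicate 2, the 1 library whose removal ended the call.

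The products of the miR-34 and miR-449 genes that met both criteria were miR-34b-3p, miR-449a and miR-449b-5p. MIR34B (GRCh37 chr11:111383663-111383746, plus strand) lies in an exon of the long non-coding RNA MIR34BHG, and its main product in these cells was the other arm, miR-34b-5p. miR-34b-3p had 17 and 6 reads in the untreated libraries against 42 and 51 after etoposide. The groups did not overlap, and the log2 fold change was 1.43 ± 0.45 (adjusted p = 0.417). Without untreated replicate 2, the library with 6 reads, it was 0.66 and not called, and the call was also lost without either etoposide replicate. miR-34b-5p, with 97 and 88 reads against 194 and 218, had a log2 fold change of 0.47 ± 0.33 (adjusted p = 0.674). The fold changes of both arms were positive, and the call rested on the rarer arm.

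MIR449A (chr5:54466360-54466450) and MIR449B (chr5:54466474-54466570) lie on the minus strand in an intron of CDC20B, a host gene known from multiciliated cells. miR-449a had 2 and 6 reads in untreated cells and 15 and 14 after etoposide, a log2 fold change of 1.18 ± 0.54 (adjusted p = 0.568). miR-449b-5p had 2 and 1 reads against 9 and 13, with a log2 fold change of 1.75 ± 0.69 (adjusted p = 0.568). Since its untreated libraries were at or under 3 reads, its fold is best given with its counting interval, 4.58-fold (95% exact interval 1.38 to 23.9, counting error only). The third miRNA of the cluster, miR-449c-5p, had 3 and 0 reads against 4 and 15, so its libraries were not all separated (on the normalized scale 3.99 and 0 against 3.30 and 11.1), and its log2 fold change of 1.69 did not pass (adjusted p = 0.589). All 3 tested miRNAs of this cluster had positive fold changes. The call of miR-449b-5p was lost with DESeq2 and without either etoposide replicate. The call of miR-449a was lost in 6 of 10 other settings, edgeR and DESeq2 included. The p-value of miR-449a passed 0.05 in 1 of the 4 fits that left out a library, that without untreated replicate 2, and its log2 fold change was 0.61 without untreated replicate 1.

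miR-34a-5p, the best known p53-activated miRNA, stayed just under the fold threshold. MIR34A (chr1:9211727-9211836, minus strand) lies in an exon of MIR34AHG. Its normalized counts were 21.3 and 35.4 in untreated cells and 46.2 and 62.4 after etoposide, without overlap. The log2 fold change was 0.94 ± 0.36 (adjusted p = 0.568). miR-34c-5p, the partner of miR-34b, had normalized counts of 142 and 102 against 132 and 177, which overlapped, and a log2 fold change of 0.35 ± 0.34 (adjusted p = 0.771).

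miR-194-5p, which is made from 2 genes and is activated with miR-192 and miR-215 by normal p53, was also called higher. It had 4 and 8 reads in untreated cells and 18 and 34 after etoposide. The groups did not overlap, and the log2 fold change was 1.33 ± 0.45 (adjusted p = 0.450), and it was not called with DESeq2. It was 0.96 both without untreated replicate 1, under 2-fold, and without etoposide replicate 2, where its unadjusted p did not pass either. Over the whole list of 16 miRNA arms that normal p53 is known to activate, 14 were in the table and 8 were tested, of which 2 were called higher and 0 lower. Over all 341 tested miRNAs 2.93% were called higher and 3.23% lower. The median log2 fold change of the 8 was 0.41 against 0.02 for all tested miRNAs. In the deposited scaling 7 of the 8 were above 0, beside 177 of all 341 tested miRNAs. With equal read totals 8 of 8 were above 0, beside 294 of the 341. In EV cells the median of the 8 was 0.29, against -0.04 for the 284 miRNAs tested in both lines. miR-22-3p was the member below 0 in the deposited scaling. The list was drawn up with earlier results of these data known, so these counts are a description.

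The remaining higher miRNAs were all rare. miR-550a-5p, miR-548d-3p and miR-152-3p had 0 to 4 reads in each untreated library and 6 to 14 in each treated one. Their log2 fold changes were 2.04 ± 0.85, 1.88 ± 0.79 and 1.43 ± 0.66 (adjusted p = 0.568 for each). As ratios of normalized counts with 95% exact counting intervals, miR-550a-5p was 4.37-fold higher (1.31 to 22.9) and miR-548d-3p 6.25-fold higher (1.52 to 55.1). miR-152-3p shares its seed with miR-148a-3p and miR-148b-3p, whose log2 fold changes of 0.35 and 0.22 did not pass. miR-25-5p, the rarer arm of a member of the MCM7-hosted miR-106b-25 cluster, had 3 and 5 reads against 14 and 17 (1.16 ± 0.49), while its main arm miR-25-3p had a log2 fold change of 0.18. miR-1303 had 5 and 7 reads against 23 and 18 (1.01 ± 0.43). Without untreated replicate 2 the log2 fold change of miR-550a-5p was 0.88 and that of miR-152-3p 0.66, and both calls were lost. The calls of miR-25-5p and miR-1303 were lost without untreated replicate 1 (0.92 and 0.87). Each of the 5 calls was also lost without etoposide replicate 1, and all but that of miR-548d-3p without etoposide replicate 2. There the log2 fold changes were 1.91 and 2.17 for miR-550a-5p, and 1.30 and 1.55 for miR-152-3p.

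**Figure D2:**
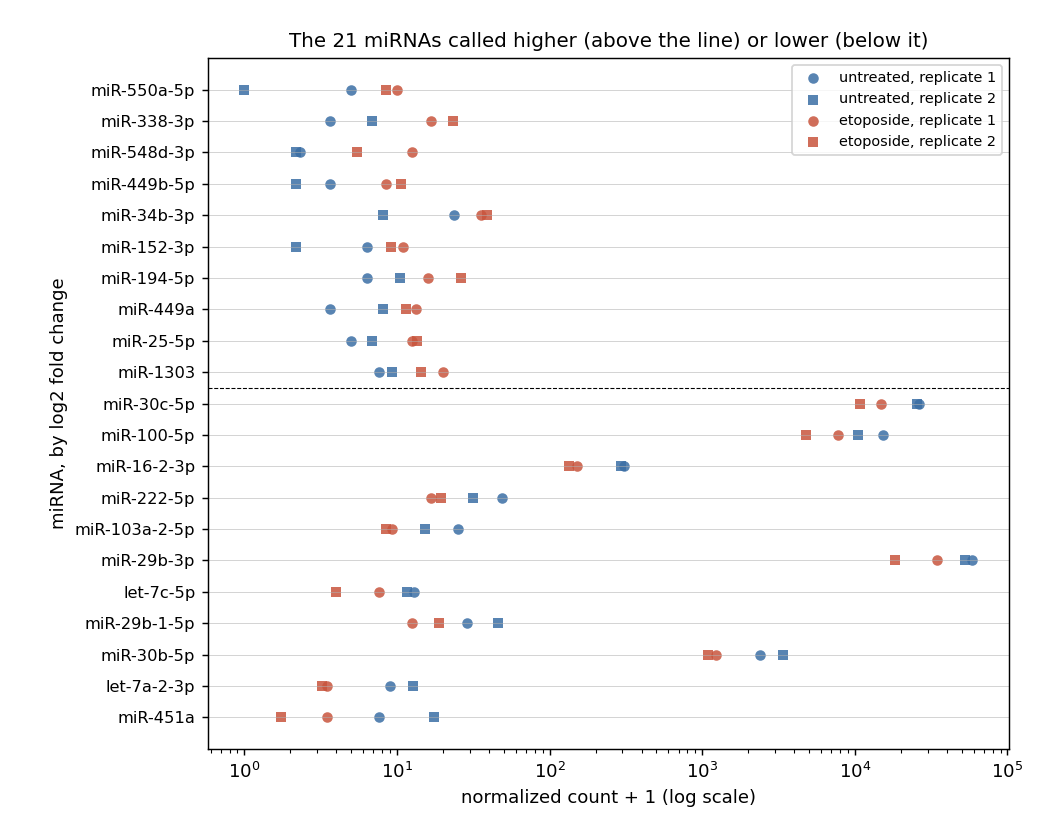
Normalized count plus 1 (log scale) in each of the 4 R273H libraries for the 21 miRNAs called higher (above the dashed line) or lower (below it), with blue for untreated, red for etoposide, circles for replicate 1 and squares for replicate 2. The higher miRNAs have treated mean normalized counts of 7.99 to 36.2, whereas the lower ones reach from rare miRNAs such as miR-451a to miR-29b-3p, the second most abundant miRNA of these libraries.

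The lower miRNAs included several of the most abundant ones. miR-29b-3p targets collagens, DNA methyltransferases and the anti-apoptotic protein MCL1. Its normalized counts were 58891 and 53038 in untreated cells and 34475 and 18298 after etoposide. The treated libraries were below both untreated ones and far from each other, and the log2 fold change was -1.15 ± 0.51 (adjusted p = 0.568). It was -0.70 without etoposide replicate 2, where its unadjusted p passed 0.05, and -0.48 with equal read totals. Without untreated replicate 1 or 2 it was -1.08 or -1.23, and its unadjusted p did not pass. Its share of the miRNA reads was 9.80% and 11.04% before and 8.25% and 7.07% after treatment.

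The other arm of the same gene family, miR-29b-1-5p, was lower too. Its normalized counts were 27.9 and 44.9 against 11.5 and 17.8, with a log2 fold change of -1.25 ± 0.38 (adjusted p = 0.417). Of the 7 listed miR-29 arms 6 were tested, all 6 had negative fold changes with a median of -0.91, and 2 were called lower. Of all 341 tested miRNAs 164 had negative fold changes and 3.23% were called lower. The negative median was not particular to R273H cells, since the 5 miR-29 arms tested in EV cells had a median of -0.60 there. miR-29a-5p, named after its values were seen, missed the fold threshold (-0.97). miR-29a-3p and miR-29c-3p, which share the seed of miR-29b-3p, had log2 fold changes of -0.52 and -0.41 (adjusted p = 0.712 for both), and both turned positive with equal read totals (0.15 and 0.26).

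In the miR-30 family, whose members repress epithelial-mesenchymal transition factors in many cells, miR-30b-5p and miR-30c-5p were lower. The normalized counts of miR-30b-5p were 2407 and 3396 in untreated cells and 1227 and 1084 after etoposide, well separated. Its log2 fold change was -1.31 ± 0.37 (adjusted p = 0.417), and it was -1.06 and not called without untreated replicate 2. With equal read totals it was -0.64 and not called. miR-30c-5p is made from an intron of NFYC (chr1:41222956-41223044) and an exon of LINC00472 (chr6:72086663-72086734). Its normalized counts were 26310 and 25425 against 14809 and 10808, with a log2 fold change of -1.03 ± 0.45 (adjusted p = 0.568). It ranged from -1.26 to -0.80 with one library left out, and its unadjusted p did not pass 0.05 without either untreated replicate. miR-30a-5p and miR-30e-5p share that seed and had log2 fold changes of -0.43 and -0.05 (adjusted p = 0.771 and 0.989), both positive with equal read totals (0.25 and 0.62). Of the 11 listed miR-30 arms 8 were tested, 2 were called lower and 0 higher, and the median log2 fold change was -0.11. Over all tested miRNAs 3.23% were called lower and 2.93% higher. The tested miR-30 arms above 0 numbered 3, and the highest was miR-30d-5p (0.59, named after its values were seen).

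A pair of neighbouring genes in introns of MIR100HG gave lower products. MIR100 lies at chr11:122022937-122023016 and MIRLET7A2 at chr11:122017229-122017301, both on the minus strand. miR-100-5p, known to target mTOR and the damage kinase ATM, had normalized counts of 15387 and 10428 against 7731 and 4815. The groups were separate, and the log2 fold change was -1.05 ± 0.44 (adjusted p = 0.568), from -1.40 to -0.71 with one library left out. Its unadjusted p passed 0.05 in 1 of those 4 fits, and with equal read totals it was -0.38 and not called. let-7a-2-3p had 6 and 10 reads against 3 and 3, with a log2 fold change of -1.68 ± 0.61 (adjusted p = 0.568). As a ratio of normalized counts it was 4.27-fold lower after etoposide (95% exact interval 1.59 to 13.3). Its log2 fold change ranged from -1.94 to -1.42 with one library left out, and its call was lost with DESeq2 and with equal read totals. The other tested products of these genes were miR-100-3p (-0.94, named after its values were seen) and let-7a-5p (-0.50), neither of them called. let-7a-5p is also made from 2 further genes, and it turned positive with equal read totals (0.17).

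miR-16-2-3p, the passenger arm of a miR-16 gene in an intron of SMC4 (chr3:160122533-160122613), kept an unadjusted p under 0.05 without each library but not with equal read totals. Its normalized counts were 307 and 292 in untreated cells and 149 and 132 after etoposide. The log2 fold change was -1.09 ± 0.33 (adjusted p = 0.417), and it was just under 2-fold without etoposide replicate 2. With equal read totals it was -0.42 and not called. The guide arm miR-16-5p, which comes from 2 genes, had a log2 fold change of -0.14 (adjusted p = 0.964), positive with equal read totals (0.53). miR-222-5p, the rarer arm of an X-linked gene in an intron of MIR222HG, had 36 and 26 reads against 19 and 25 and normalized counts of 47.9 and 30.7 against 15.7 and 18.6 (-1.12 ± 0.36). miR-103a-2-5p, from an intron of PANK2, had normalized counts of 23.9 and 14.2 against 8.24 and 7.42 (-1.14 ± 0.42). let-7c-5p had 9 and 9 reads against 8 and 4, and was separated on the normalized scale (-1.16 ± 0.53). With one library left out it ranged from -1.63 to -0.69, miR-103a-2-5p from -1.50 to -0.78 and miR-222-5p from -1.44 to -0.81. The calls of these miRNAs were lost with equal read totals. Those of let-7c-5p and miR-103a-2-5p were also lost with DESeq2, and that of let-7c-5p with edgeR and with no filter.

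miR-451a, an erythroid miRNA, had the most negative fold change of the tested features. It was counted 5 and 14 times in untreated cells and 3 times and once after etoposide, with a log2 fold change of -2.24 ± 0.72 (adjusted p = 0.417), and -1.64 and not called without untreated replicate 2. As a ratio of normalized counts it was 7.60-fold lower (95% exact interval 2.53 to 30.7). Untreated replicate 2 also held more reads on miRNAs of other cell types. Over the 21 listed markers of epithelial, blood, liver, muscle, nerve, fibroblast and pluripotent cells that were in the table, it had 83 reads. Untreated replicate 1 had 24 and the treated libraries 27 and 23, and these sums include the reads of miR-451a itself. The other tested blood marker, miR-486-5p, had 6 and 5 reads before and 9 and 12 after etoposide (log2 fold change 0.21). The muscle miRNA miR-1 had 18 reads in untreated replicate 2 and 0, 3 and 0 elsewhere. The part of this library in the result for miR-451a, beyond the value without it, was not tested. The 6 epithelial markers of the miR-200 family and miR-205 summed to 2 to 18 reads a library and none was tested, while the 2 arms of miR-126, an endothelial marker, summed to 505 to 922 reads, with log2 fold changes of -0.13 and 0.02.

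Each of the other groups held at most 1 called member, beside 6.16% of all tested miRNAs, and nothing particular to a group is read from a single call. Of the 9 tested let-7 guides 1 was called lower (let-7c-5p) and 6 were above 0, and of the 4 tested let-7 passengers 1 was called lower (let-7a-2-3p). All 10 tested arms of the miR-17-92 cluster, a growth-promoting cluster, were below 0 with a median of -0.57, but none was called and 6 of the 10 were above 0 with equal read totals. The 4 arms of miR-221 and miR-222 were all below 0 with a median of -0.68, of which 1 was called, and 2 of the 4 were above 0 with equal read totals. None was called among the 8 tested arms of the miR-23/27/24 clusters, the 7 of miR-181, the 6 of miR-183, miR-96 and miR-182, the 7 guides of miR-15/16 or the 5 miRNAs linked to mutant p53 in earlier work (medians from -0.24 to -0.02). Of the 6 passengers of miR-15/16, 1 was called lower, and of the 6 arms of miR-106b-25, 1 was called higher. Of the 16 tested miRNAs known to target damage response genes such as ATM and H2AX, 1 was called lower (miR-100-5p), with a median of -0.10. None of the 4 tested miRNAs whose processing p53 aids was called (median -0.30).

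The fold change depended on abundance. Of the 37 miRNAs that averaged 1000 normalized counts or more, 35 had a negative log2 fold change, with a median of -0.31 and 4 called lower. The medians were 0.02 for the 68 miRNAs from 100 to 1000, 0.07 for the 135 from 10 to 100 and 0.14 for the 101 from 3 to 10. With equal read totals 10 of the 37 abundant miRNAs were negative and their median was 0.36, below those of the other classes (0.69 to 0.73). The 37 abundant miRNAs took 95.6% and 94.1% of the miRNA reads in untreated cells and 93.2% and 90.0% after etoposide. The pattern was not particular to R273H cells. In EV cells the same classes, from abundant to rare, had medians of -0.32, -0.03, 0.00 and 0.33 in the deposited scaling. These cover the 37, 68, 126 and 53 miRNAs of each class tested there.

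miR-21-5p, an oncogenic miRNA of many carcinomas, was the most abundant miRNA. It took 43.8% and 38.2% of the miRNA reads in untreated cells and 37.4% and 30.6% after etoposide, so that both treated libraries were below both untreated ones. Its log2 fold change was -0.98 ± 0.59 (adjusted p = 0.648). It was -0.31 with equal read totals, where its adjusted p of limma was under 0.05, as were those of miR-29b-3p (-0.48) and miR-338-3p (2.55). In limma the variance is drawn towards a trend over all features, and miR-21-5p lies at the abundant end of it. Its p-value in that scaling therefore does not measure the spread of its own libraries, whose nearest shares were 38.2% and 37.4%. miR-21-5p was followed in abundance by miR-29b-3p and miR-30c-5p. The share of miR-30c-5p was 4.38% and 5.29% before and 3.55% and 4.17% after etoposide. The next, miR-23a-3p and miR-31-5p, had shares of 3.74% to 4.31% and 2.44% to 2.90% that overlapped between the groups.

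For 75 miRNA genes both arms were tested. The arms had the same sign in 47 of them, and Pearson's r between their log2 fold changes was 0.41 over the 75 pairs, whose arms share libraries and partly a precursor. Of the pairs, 1 had its main arm and 1 its rarer arm called lower, and 2 had their rarer arm called higher. The other called miRNAs were in none of these 75 pairs.

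The libraries of treated cells held a larger share of tRNA reads. Transfer RNAs carry amino acids to the ribosome, and after stress nucleases such as angiogenin cut them into fragments that enter small RNA libraries. tRNA features took 1.72% and 2.67% of the counted reads in untreated cells and 4.34% and 4.53% after etoposide, without overlap, and rRNA features took 0.0889% and 0.185% against 0.237% and 0.292%. An exact permutation test of 2 libraries against 2 cannot give a p under 0.333, so no test is given. The share of miRNA reads was 98.2% and 97.1% against 95.4% and 95.2%. In this comparison the shares of tRNA and miRNA reads are not independent, since they sum with rRNA to all counted reads. The larger tRNA share was not particular to R273H cells. In EV cells it was 6.92% and 3.75% before and 8.61% and 8.78% after etoposide. The untreated EV libraries lay far apart, and untreated EV replicate 1 was above both treated R273H libraries.

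**Figure D3:**
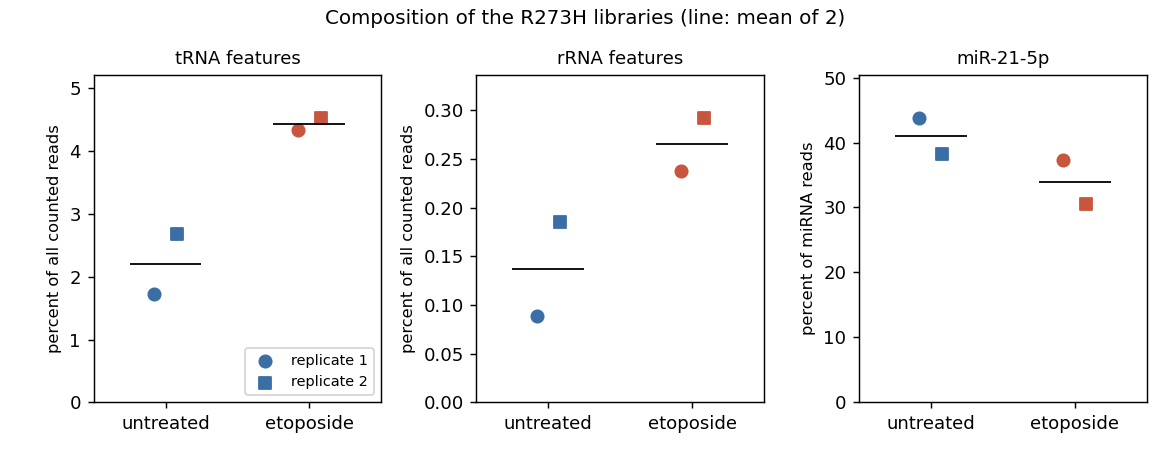
Share of counted reads on tRNA features (left) and rRNA features (middle) and share of miR-21-5p among miRNA reads (right) in each R273H library, with black lines at the mean of 2 libraries. Both treated libraries lie above both untreated ones for tRNA and rRNA and below them for miR-21-5p.

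The larger share came with few calls among single tRNA features. Of the 104 tested tRNA features, 1 was called higher and 0 lower at unadjusted p and fold in limma (0.962% and 0%), 6 had an unadjusted p under 0.05 and none an adjusted one. Libraries did not overlap for 21 higher (20.2%) and 17 lower (16.3%) tRNA features. edgeR called 1 higher and 1 lower and DESeq2 1 higher, with 0 adjusted in each. The median log2 fold change was 0.00 with the deposited scaling, and with equal read totals it was 0.61 and 13 tRNA features were called higher and 0 lower. With equal read totals the median of the tested miRNAs was 0.67, and 34 of the 341 were called higher. The called feature, chr16.trna32-LysCTT, decodes lysine. Its normalized counts were 39.9 and 39.0 in untreated cells and 87.4 and 74.2 after etoposide, a log2 fold change of 1.01 ± 0.33 (adjusted p = 0.417). Its unadjusted p did not pass 0.05 without etoposide replicate 1, and it was just under 2-fold without that library or untreated replicate 2. Copies of tRNA genes with the same anticodon can share reads, so the value of a single feature is uncertain.

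Summed over amino acids, tRNA reads per 100000 counted reads were higher in both treated libraries than in both untreated ones for 12 of 20 amino acids. On that scale most features rose, and 294 of the 341 tested miRNAs had a log2 fold change above 0. How many features of all kinds were separated on that scale was not counted. Nothing particular to tRNA is therefore read from the 12. Aspartate tRNA made up the largest part of the tRNA reads. It had 596 and 1160 reads per 100000 before and 2230 and 1891 after etoposide. The ratio of the means was 2.35, beside 2.02 for all tRNA features. Valine tRNA had 413 and 514 against 969 and 920 (ratio 2.04), methionine tRNA 79.1 and 90.8 against 218 and 198 (ratio 2.45), and leucine tRNA 24.1 and 27.7 against 49.5 and 73.7 (ratio 2.38). Alanine and tryptophan tRNA overlapped between the groups, with ratios of 1.13 and 1.02, and isoleucine had a ratio of 0.89. On the normalized scale 4 of the 20 amino acids were separated upwards (arginine, glutamine, leucine and methionine) and 3 downwards (glutamate, isoleucine and tyrosine). Aspartate overlapped there (3644 and 5737 before against 9761 and 5146 after), as did valine (2529 and 2542 against 4243 and 2503). All tRNA features together overlapped too (10550 and 13217 against 18990 and 12320). The larger share after etoposide was thus not uniform over amino acids. The single feature chr12.trna10-AspGTC held 31.1% and 37.8% of the tRNA reads before and 47.7% and 38.5% after, and its log2 fold change was 0.69 ± 0.44 (adjusted p = 0.665).

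The 3 rRNA features were the 5.8S, 18S and 28S RNAs of the ribosome. The 5.8S feature (RNA5-8SN5) had normalized counts of 75.8 and 156 against 202 and 200. The groups did not overlap, and the log2 fold change was 0.88 ± 0.37 (adjusted p = 0.568), under the fold threshold. The 18S and 28S features (RNA18SN5 and RNA28SN5) had log2 fold changes of 0.33 and 0.22 (adjusted p = 0.771 and 0.933).

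To ask whether the response differed from that of H1299 cells without mutant p53, the same features were compared in EV cells. Of the 21 miRNAs called in R273H cells 17 were tested in EV, 11 of them (64.7%) had the same sign there, beside 191 of all 284 miRNAs tested in both lines (67.3%), and 5 were called in EV in the same direction and 0 in the opposite one, where 6.42% of the 296 miRNAs tested in EV were called (2.36% higher and 4.05% lower). The 5 were miR-338-3p (EV log2 fold change 1.44 ± 0.70), miR-449a (2.05 ± 0.84), miR-16-2-3p (-1.88 ± 0.43), let-7a-2-3p (-1.75 ± 0.68) and miR-29b-3p (-2.10 ± 0.58). miR-34a-5p had 1.29 ± 0.52 in EV, where miR-34b-3p had 0.13 ± 0.69. Over the 284 miRNAs tested in both lines, Pearson's r of the log2 fold changes was 0.35 and Spearman's rho 0.38, given as a description across miRNAs of separately normalized tables.

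No difference between the lines passed adjustment. The interaction of line and etoposide was tested for 451 features with edgeR on the recovered reads of all 8 libraries, where 20 had an unadjusted p under 0.05 (4.43%) and 0 an adjusted one. DESeq2 gave 8 and 0. The smallest p-value was that of miR-451a, with a difference of -3.62 on the log2 scale (adjusted p = 0.984). The next were miR-129-1-3p (-5.74, with 0 to 3 reads in each R273H library and 0 to 16 in EV), chr13.trna5-GluTTC (-2.05) and miR-205-5p (-5.33, with 0 to 7 reads in each library of both lines). The differences for miR-34a-5p (-0.45), miR-34b-3p (1.11) and miR-338-3p (0.38) had an adjusted p of 0.9997 each, which does not show that the lines responded alike.

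**Figure D4:**
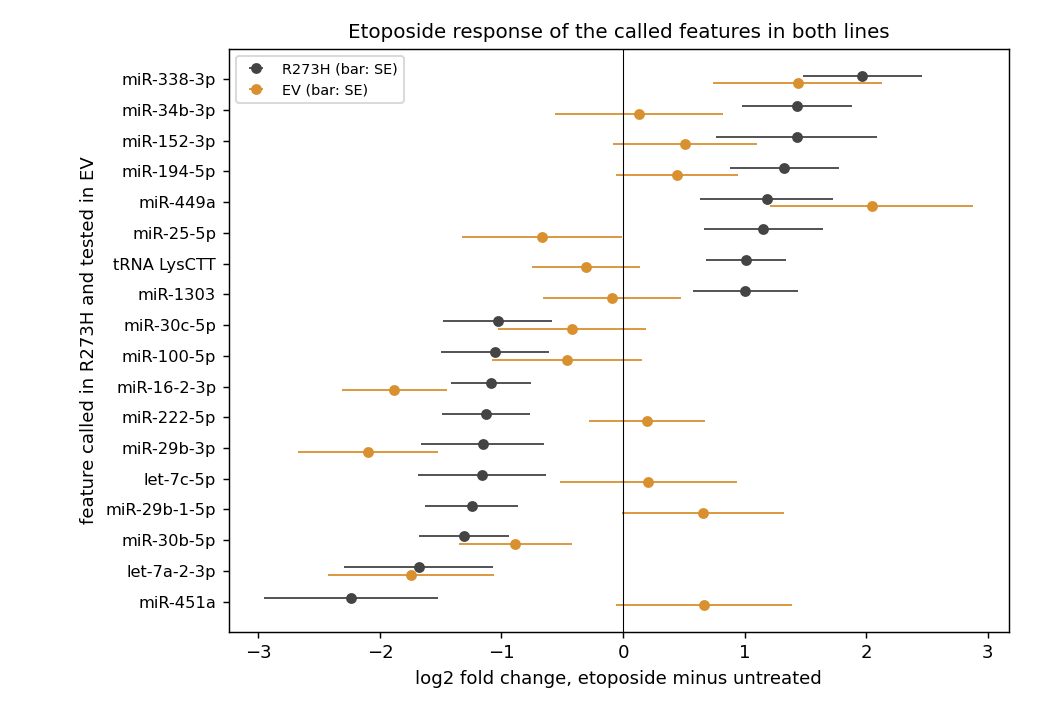
Log2 fold change after etoposide in R273H (grey) and EV cells (orange) for the 17 miRNAs and 1 tRNA feature called in R273H and tested in EV, with bars of 1 standard error on each side. Values of both lines lie on the same side of 0 for 11 of the 17 miRNAs. Among these are the 5 also called in EV, miR-338-3p, miR-449a, miR-16-2-3p, miR-29b-3p and let-7a-2-3p. Among those on opposite sides are miR-25-5p, miR-29b-1-5p and miR-451a.

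The features below the filter were 420 miRNAs and 127 tRNA features, each with at most 7 reads in a library. Of these, 28 miRNAs and 9 tRNA features had reads in both treated libraries and in neither untreated one, and 6 miRNAs and 0 tRNA features showed the reverse. At this depth such counts are near the limit of detection, since a count of 0 allows up to 3 reads.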

How the data were processed

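The authors trimmed and length-filtered the Ion PGM reads, aligned them to miRBase 20 with SHRiMP and the rest to GRCh37 with Novoalign, counted reads per miRNA, tRNA, rRNA and adapter feature, and normalized the counts with DESeq. The deposited values are a normalized signal, a read count divided by the size factor of its library. All values (100%) were whole multiples of the worth of 1 read within rounding to 2 decimals, so reads were recovered. The deposited log2 fold changes and p-values of the authors, and the table of R273H against EV, were not used. Adapter rows were left out.

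The 4 R273H libraries were tested with limma 3.58.1 (lmFit and eBayes with a trend, R 4.3.3) on log2(normalized count + 1), which understates folds of rare features, in 1 fit over all features with a mean of at least 3. The interaction used the quasi-likelihood test of edgeR 4.0.16 on recovered reads, and DESeq2 1.42.0 was an alternative. p-values were Benjamini-Hochberg adjusted over all features tested. The tests were checked on simulated reads. The deviations of libraries with the same replicate number were not correlated over the features (-0.02). With 2 libraries a group this cannot exclude that the numbers pair the libraries.

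Members and lists were chosen with earlier results of these data known. Named are called features whose groups do not overlap, the 5 most abundant miRNAs, abundant or called members of each list, the rRNA features and the 4 smallest p-values of the interaction. Others named were chosen after their values were seen. Positions are from GENCODE 44 lifted to GRCh37. Copies of tRNA genes can share reads, and suppressor and undetermined tRNAs were not counted among the amino acids. Equal read totals were an alternative chosen after seeing the data. Intervals and limits cover counting error only. Python 3.11.15 was used for the other calculations.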

Additional observations from a re-analysis of the deposited data

Results flagged for a closer look

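For 3 of the 17 miRNAs called in R273H cells and tested in EV, the libraries of the 2 lines moved in opposite directions without overlap. Such moves were not counted over all 284 miRNAs tested in both lines. Nothing particular to the called miRNAs is therefore read from this count. Of the 284, 67.3% had the same sign in both lines, beside 64.7% of the 17. The interaction of each of the 3 was tested with edgeR on the reads of all 8 libraries, and none passed adjustment. miR-25-5p had normalized counts of 3.99 and 5.90 before and 11.5 and 12.6 after etoposide in R273H, against 10.96 and 12.11 before and 9.54 and 4.92 after in EV, a difference of 1.90 on the log2 scale (adjusted p = 0.9997). miR-29b-1-5p was lower after etoposide in R273H, and in EV it went from 7.09 and 6.05 to 8.58 and 13.8 (-2.04, adjusted p = 0.984). miR-451a was lower in R273H, and in EV it went from 5.16 and 4.54 to 11.4 and 5.90 (-3.62, adjusted p = 0.984). It had 1 to 14 reads a library in R273H and 3 to 12 in EV, and the part of untreated replicate 2 of R273H, which held the 14 reads, in this difference was not tested.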

How the results depend on the processing

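The number of miRNAs called at unadjusted p and fold was 21. It was 11 with a pseudocount of 5, 11 with a mean of at least 10, 9 with DESeq2, 35 with equal read totals, and between 4 and 32 with one library left out. Adjusted calls of miRNAs, 0 in the main analysis, were 1 with DESeq2, 3 with equal read totals and between 0 and 2 with one library left out. For tRNA features the count of 1 became 2 with a pseudocount of 0.5, 0 with a pseudocount of 5, 3 with no filter, 5 with equal upper quartiles, 7 without the trend, 2 with edgeR, 2 with the replicate block, 13 with equal read totals, and between 1 and 9 with one library left out. Adjusted tRNA calls were 1 with equal read totals (chr12.trna10-AspGTC). The interaction had between 0 and 1 adjusted calls with one library left out, the 1 being chr13.trna5-GluTTC without EV etoposide replicate 1. The share of tRNA reads differed by 2.23 percentage points, and by 2.92 with miR-21-5p left out of the total. With the replicate block, which treats libraries of the same number as pairs, 17 miRNAs were called. Of the 22 called features 4 lost their unadjusted p under 0.05 there. The unadjusted p of miR-21-5p in limma was 0.019 with the block and 0.12 in the main fit. Whether the numbers pair the libraries is not settled.

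No called feature changed sign. Of the other features named, these turned positive with equal read totals: miR-23a-3p (0.067), miR-29a-3p (0.15), miR-29c-3p (0.26), miR-30a-5p (0.25), miR-30e-5p (0.62), miR-222-3p (0.070), miR-16-5p (0.53), miR-24-3p (0.40), miR-17-5p (0.45) and let-7a-5p (0.17). With one library left out the sign changed within these ranges: miR-30a-5p -0.91 to 0.055, miR-30e-5p -0.33 to 0.23, miR-16-5p -0.35 to 0.069, miR-148b-3p -0.24 to 0.67, miR-1 -3.58 to 0.90, miR-24-3p -0.63 to 0.093, the 28S feature -0.20 to 0.63 and chr13.trna5-GluTTC -0.32 to 0.64.

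Limits: 2 libraries a group, 16 of the 21 called miRNAs with fewer than 100 reads in each library, a higher-lower split that depends on the scaling, and a dose stated in 2 units. The cause of these dependences was not tested.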
